A study of Homo sapiens with 36 samples.

Results

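Genes of the Wnt pathway were followed through an RNA sequencing series on prostate cancer cells. The set holds 47 genes for Wnt ligands, their receptors, and the proteins that carry, limit or read out the signal. The genes were listed by name, and each was found as 1 of the 61805 named genes of the count table. From its title, the series concerns TRIM33, a ubiquitin ligase that works on chromatin, and how its loss bears on the output of the androgen receptor. The cells were LNCaP, an established line from a prostate cancer metastasis, and 42D, a derivative of LNCaP that is resistant to enzalutamide. 42D was sampled as NT3 and sgT33-5, and LNCaP as NT3, sgT33-5, sgT33-5_MC_C2 and sgT33-5_MC_F2, the last 2 shortened here to C2 and F2. None of these names is expanded in the labels. NT3 was read as the control guide and sgT33-5 as a guide against TRIM33. All cells spent 3 days in hormone-stripped serum and then received 5 nM of R1881, a synthetic androgen, or DMSO, its solvent, for 6 h. These conditions are listed for all samples, but the growth protocol names LNCaP only and the growth of 42D is not described. Each of the 12 groups had 3 replicates. The labels do not call them separate cultures, so the p-values measure the spread between these samples. Nor do they say how the guide was delivered, whether C2 and F2 each grew from 1 cell, or whether they came from the sgT33-5 cells.

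Wnt ligands are secreted lipid-modified proteins that bind Frizzled receptors together with a co-receptor. In the canonical branch, binding of Frizzled and LRP5 or LRP6 stops a complex of APC, AXIN and GSK3 from marking beta-catenin for destruction, and beta-catenin then acts with transcription factors of the TCF and LEF family. In the non-canonical branch, ligands such as WNT5A signal through Frizzled with ROR1, ROR2 or RYK and through planar polarity proteins such as VANGL2. In the prostate, Wnt signalling takes part in development, and both branches have been studied in cancers that resist androgen deprivation.

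Library totals were 13900744 to 19793268 counts. Levels are in CPM, the gene's count scaled to a common library total by TMM. TRIM33 itself stood at 34.2 to 66.3 CPM in the guide lines of LNCaP against 89 to 129 CPM in NT3, and at 54.8 to 74.6 against 79.4 to 109 CPM in 42D, with no overlap in either. Its log2 fold changes against NT3 were -1.57 to -0.96 in LNCaP and -0.55 and -0.52 in 42D. All 13 luminal prostate markers examined, the androgen receptor among them, averaged over 1 CPM in both cell lines, and 7 leukocyte markers summed to at most 2.47 CPM. Mitochondrial transcripts made up 4.16% to 6.66% of the counts of LNCaP libraries, apart from a pair of sgT33-5 libraries, DMSO replicate 3 at 2.14% and R1881 replicate 1 at 2.4%. Of the 47 genes, 37 passed the expression filter in LNCaP and 42 in 42D. A gene is called here where the edgeR quasi-likelihood test gave a Benjamini-Hochberg adjusted p under 0.05 over all genes tested, and log2 fold changes are followed by their standard error (SE) in brackets.

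Of the 47 genes, 6 answered R1881 in 1 direction in every line. FZD5 and WNT7B rose, and FZD3, FZD4, RNF43 and WNT5A fell. Upstream sequence of 3 of them is shown, for the gene with the largest rise and for a ligand and a receptor regulator that fell. It comes from the RefSeq promoters of GRCh38.p14, which held 42 promoters for 33 of the 47 genes. The 250 bases before the start of FZD5, chr2:207769907-207770156 on the minus strand, and before the downstream of both WNT5A starts, chr3:55481399-55481648 on the minus strand, are printed 5′ to 3′. For RNF43 a window of 30 bases is given, chr17:58417553-58417582 on the minus strand. The androgen receptor half-site AGAACA is in capitals, 36 bases before the RefSeq start used. The gene bounds given below reach further upstream than the RefSeq starts used for WNT5A and RNF43. By those bounds, the sequences shown for these genes lie within the gene.
FZD5: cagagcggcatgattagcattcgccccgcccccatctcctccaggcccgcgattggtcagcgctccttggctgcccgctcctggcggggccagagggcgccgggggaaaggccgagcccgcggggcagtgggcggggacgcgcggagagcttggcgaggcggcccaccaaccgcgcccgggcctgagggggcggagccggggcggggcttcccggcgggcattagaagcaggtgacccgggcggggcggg
WNT5A: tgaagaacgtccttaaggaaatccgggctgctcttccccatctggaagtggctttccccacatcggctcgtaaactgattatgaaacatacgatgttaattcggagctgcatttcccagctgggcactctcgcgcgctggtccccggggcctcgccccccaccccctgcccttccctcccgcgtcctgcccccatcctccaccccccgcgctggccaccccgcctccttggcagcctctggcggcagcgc
RNF43: ggagtcagagctAGAACAccaattacaaac
The half-site was searched on both strands as AGAACA and TGTTCT, and the core of the TCF and LEF site as CTTTGAT and ATCAAAG. The half-site was found in 7 of the 42 promoters and in 12.4% of all 35116 promoters of the same length. The TCF and LEF core was found in 1 of 42, that of SP5, and in 2.26% of all. Neither motif was in the FZD5 or WNT5A sequences printed, in the other promoter of WNT5A or of RNF43, or in that of FZD4. The FZD5 sequence is 76.8% G and C and that of WNT5A 64.4%, and the median of all promoters was 58%. These matches describe letters only.

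FZD5 (ENSG00000163251, chromosome 2, 207762598 to 207769906), a Frizzled receptor, had the largest rise among the genes of the set tested in LNCaP and in 42D. In LNCaP NT3 its DMSO libraries stood at 32.7, 35.5 and 35.2 CPM and its R1881 libraries at 127, 136 and 124 CPM. In C2 the DMSO libraries were at the same level, 35.3, 32.9 and 29.5 CPM, while the R1881 libraries reached only 62.7, 66.5 and 61.5 CPM. 42D NT3 began lower, at 15.5, 14.3 and 14.2 CPM, and rose to 71.6, 71.1 and 71.5 CPM. The DMSO and R1881 libraries did not overlap in any line. The log2 fold changes were 1.90 (0.084) in LNCaP NT3, 1.61 (0.083) in sgT33-5, 0.96 (0.084) in C2, 1.28 (0.084) in F2, 2.30 (0.062) in 42D NT3 and 2.32 (0.061) in 42D sgT33-5. Adjusted p-values were 6.26e-09 or lower. WNT7B (ENSG00000188064, chromosome 22, 45920366 to 45977162), a ligand that in other tissues acts mainly through the canonical branch, also rose throughout. In LNCaP NT3 it went from 34.7, 38.1 and 32 CPM to 86.3, 104 and 75.6 CPM, and in 42D NT3 from 21.6, 27.5 and 24.1 CPM to 59.2, 64.7 and 60.8 CPM. Its log2 fold changes were 1.34 (0.12), 1.31 (0.12), 0.63 (0.12) and 0.90 (0.12) in LNCaP NT3, sgT33-5, C2 and F2, and 1.36 (0.078) and 1.42 (0.076) in 42D NT3 and sgT33-5. C2 had the smallest of these values for both genes.

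RNF43 (ENSG00000108375, chromosome 17, 58353676 to 58417595) encodes a ubiquitin ligase that removes Frizzled from the cell surface. It fell from 8.77, 6.89 and 9 CPM to 3.95, 3.52 and 4.68 CPM in LNCaP NT3, and from 7.89, 7.58 and 7.42 CPM to 3.74, 3.34 and 4.35 CPM in 42D NT3. The log2 fold changes were -1.03 (0.14) and -0.98 (0.13), and those of sgT33-5, C2, F2 and 42D sgT33-5 were -0.86, -0.51, -0.71 and -0.91. The Frizzled receptors FZD3 and FZD4 fell beside it. FZD3 (chromosome 8, 28494205 to 28574267) went from 158, 179.6 and 159.8 CPM to 104, 112 and 92.7 CPM in LNCaP NT3, by -0.69 (0.088), and by -0.58 (0.062) in 42D NT3. FZD4 (chromosome 11, 86945679 to 86955395) went from 34, 31.2 and 34.3 CPM to 21.7, 18.4 and 18.3 CPM in LNCaP NT3, by -0.77 (0.091), and by -0.40 (0.094) in 42D NT3. FZD4 overlaps PRSS23, which changed by -0.56 and -1.09 in the same lines. The libraries were stranded, but the strand setting of the counting is not given in the sources used here, so reads of the 2 genes may be shared. In C2 the calls of RNF43 and FZD3 depended on single libraries. RNF43 ended without C2 with DMSO replicate 1 (adjusted p = 0.171) or 3 (0.0513), or R1881 replicate 1 (0.111) or 3 (0.128). FZD3 ended without C2 with DMSO replicate 2 (0.0634) or R1881 replicate 3 (0.0664). The call of FZD4 in 42D sgT33-5 ended without DMSO replicate 1 (0.0525).

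WNT5A (ENSG00000114251, chromosome 3, 55465715 to 55490539), the main ligand of the non-canonical branch, fell in every line, but by very different amounts in the cell lines. In LNCaP NT3 it went from 54, 49.9 and 47.5 CPM to 41.6, 36.8 and 43.5 CPM. In 42D NT3 it started about an order of magnitude higher, at 522, 571 and 550.2 CPM, and fell to 107, 118 and 107 CPM. Even with R1881, 42D libraries stayed above every LNCaP library. The log2 fold changes were -0.32 (0.084; adjusted p = 0.00901) in LNCaP NT3, -0.50 (0.089) in sgT33-5, -0.36 (0.085) in C2, -0.39 (0.084) in F2, -2.29 (0.062) in 42D NT3 and -2.40 (0.063) in 42D sgT33-5. The LNCaP NT3 call ended without DMSO replicate 1 (adjusted p = 0.0822) or R1881 replicate 2 (0.0896), and the C2 call without DMSO replicate 3 (0.127) or R1881 replicate 1 (0.1).

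**Figure D1:**
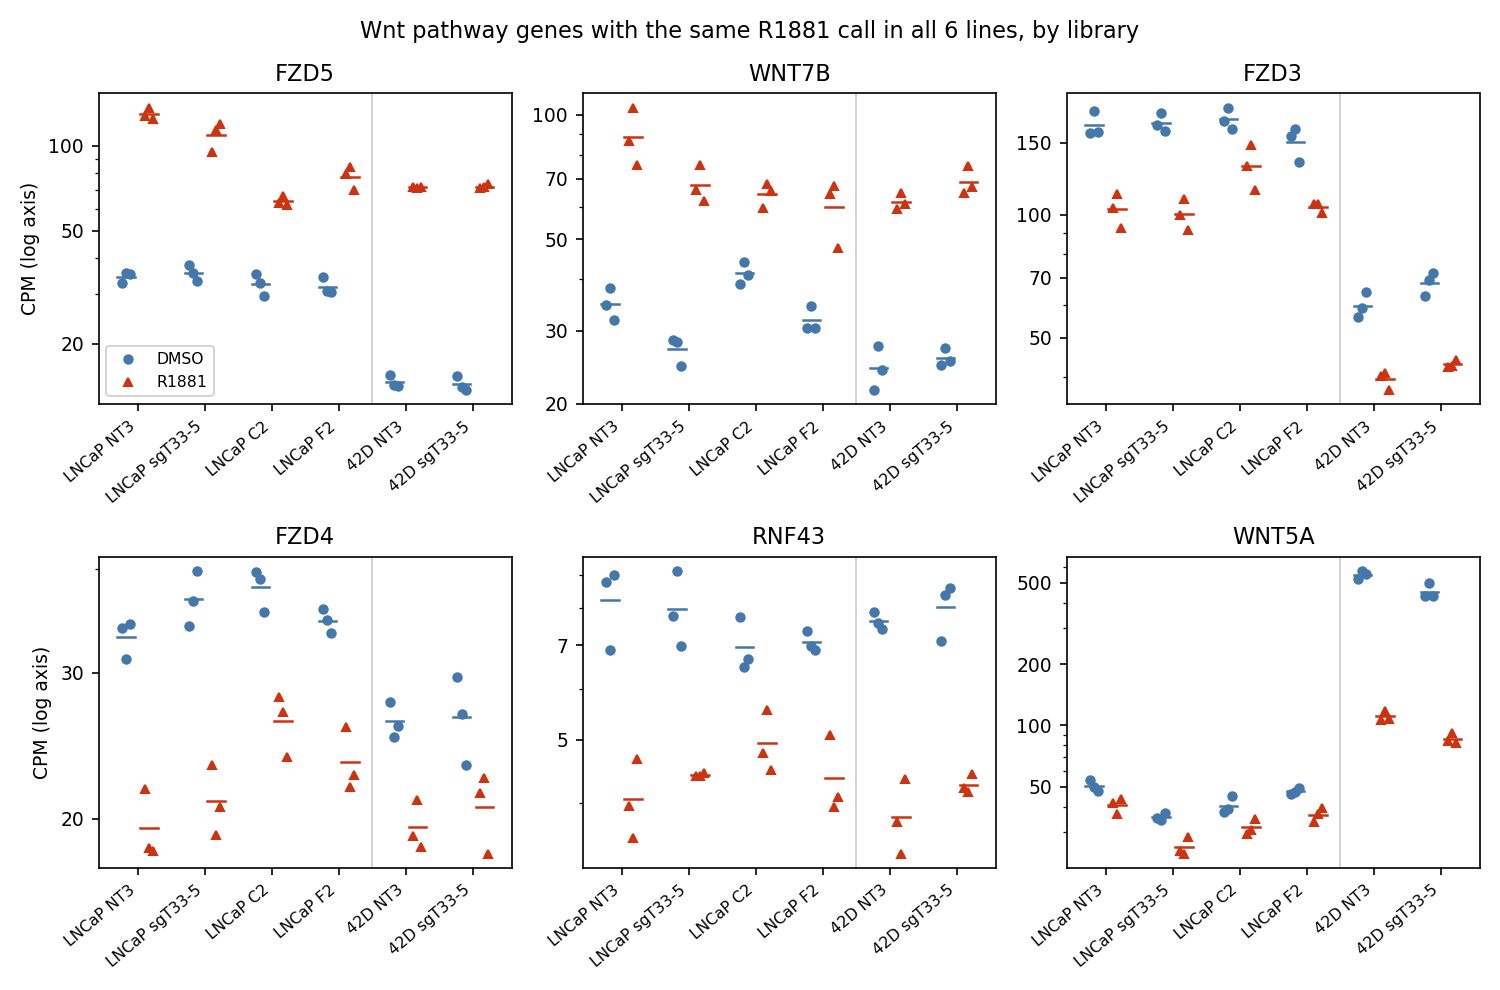
Levels in CPM (log axis) of the 6 genes called in 1 direction with R1881 in all 6 lines, with 1 point per library (circles DMSO, triangles R1881) and bars at the mean of 3. FZD5 and WNT7B libraries are higher with R1881 in every line, those of FZD3, FZD4, RNF43 and WNT5A lower, and the vertical line divides LNCaP from 42D.

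Over the whole set, the share called with R1881 stood above that of all genes in each line, a difference that was not tested. The genes of the set, and the further names below, were chosen with earlier results of these data known. Shares called, here and below, thus describe these genes only. In LNCaP NT3, 13 of the 37 tested genes were called, 8 higher and 5 lower, where 13.2% of all genes tested were called, 8% higher and 5.15% lower. In 42D NT3, 18 of 42 were called, 9 in each direction, against 25.3% of all genes (13.9% higher, 11.4% lower), and in 42D sgT33-5 21, 11 higher and 10 lower, against 27.3%. The numbers were 12 in sgT33-5 (6 and 6; 12.5% of all genes), 6 in C2 (2 and 4; 5.66%) and 12 in F2 (5 and 7; 10.4%). The 6 genes called in 1 direction in all lines compare with 3.8% of the 14417 genes tested in all of them, 2.64% higher and 1.17% lower. Of 37 genes, 25 were called in at least 1 line and 0 in opposite directions in different lines. The same counts were not made over all genes, so they are not read as a trait of the set. The median log2 fold change of those tested was -0.01 in LNCaP NT3 and -0.04 in 42D NT3, beside -0.01 and -0.00 for all genes. In sgT33-5 the count was 7 without DMSO replicate 2 or 3, and 6 without both libraries of low mitochondrial share. The calls of FZD1, FZD8, LRP6, DVL2, GSK3A and VANGL1, at -0.19 to 0.69, each ended without at least 1 library of the line.

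By role, calls were frequent among ligands, Frizzled receptors and genes of receptor turnover in both NT3 lines. In 42D NT3 all 3 tested ligands, 6 of 8 Frizzled receptors, 2 of 3 receptor turnover genes, 2 of 5 co-receptors, 1 of 2 ligand release genes and 1 of 2 planar polarity genes were called, and 1 of 4 transcription factors, 1 of 5 cytosolic transducers, 1 of 6 genes of the destruction complex and 0 of 4 secreted or membrane inhibitors. In LNCaP NT3 the numbers were 3 of 3 ligands, 5 of 7 Frizzled receptors, 2 of 3 turnover genes, 1 of 5 co-receptors, 0 of 2 ligand release and 0 of 2 planar polarity genes, 1 of 3 transcription factors, 0 of 5 transducers, 1 of 6 of the complex and 0 of 1 inhibitors. Among them the ligand WNT4, at -0.64 (0.21; adjusted p = 0.0483), lost its call whichever of the 6 libraries was left out (0.0636 to 0.195), and FZD8, at 0.76 (0.2), lost it without R1881 replicate 3 (0.0686). These are counts, and no difference between roles was tested. The 6 genes of the destruction complex include CTNNB1, on which it acts, and CTNNB1 was the 1 called in both NT3 lines. Of the genes known as feedback targets of beta-catenin, RNF43 fell in every line as given above, while others were not called: in 42D NT3, AXIN2 was at -0.28 (0.12; adjusted p = 0.112), NKD1 at -0.15 (0.088; 0.239), ZNRF3 at -0.07 (0.064; 0.476) and APCDD1 at 0.15 (0.11; 0.38). LEF1, a transcription factor of the pathway and itself a known target, rose slightly, from 24.5, 25.2 and 24.3 CPM to 31.1, 28.6 and 28.9 CPM in 42D NT3, by 0.28 (0.066). In LNCaP NT3 it was at 0.37 (0.11; adjusted p = 0.0205), with the call lost without DMSO replicate 2 (0.0638) or 3 (0.125), or R1881 replicate 1 (0.142) or 2 (0.115). CTNNB1, the gene of beta-catenin, had the highest level per kilobase of exon of the set in LNCaP NT3 with DMSO and moved little, from 590.2, 607 and 547 CPM to 672, 693 and 644 CPM in LNCaP NT3, by 0.20 (0.047). That call ended without DMSO replicate 3 (0.0565). In 42D NT3 CTNNB1 was at 0.13 (0.039), and lost its call without DMSO replicate 1 (0.0582) or 2 (0.055) or R1881 replicate 3 (0.081).

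Receptors and ligands that answered in 42D NT3 are described next, with the test of the difference from LNCaP NT3 after them. All 13 genes called in LNCaP NT3 were called in the same direction in 42D NT3 and in 42D sgT33-5, as were 72% and 72.4% of all 1971 genes called in LNCaP NT3 and tested in 42D. ROR1 (ENSG00000185483, chromosome 1, 63774017 to 64181498), a co-receptor of WNT5A, stood at 17, 17.6 and 17.7 CPM in 42D NT3 with DMSO and at 52.9, 49 and 45.3 CPM with R1881, a change of 1.51 (0.088). In LNCaP NT3 its libraries were at 17, 19.9 and 15.4 CPM and at 24.2, 27 and 21 CPM, a change of 0.46 (0.12) whose call ended without DMSO replicate 3 (adjusted p = 0.0817) or R1881 replicate 2 (0.0733). The co-receptor thus began at like levels in both cell lines. Another WNT5A co-receptor, ROR2, fell in 42D NT3, from 3.94, 5.07 and 3.87 CPM to 2.4, 2.74 and 1.96 CPM, by -0.83 (0.18), and by -1.10 (0.2) in 42D sgT33-5. Its change in LNCaP NT3 was of like size, -0.75 (0.3), but was not called (adjusted p = 0.121). FZD8, a Frizzled receptor, rose from 6.16, 7.37 and 7.98 CPM to 14.6, 14.2 and 13.9 CPM, by 1.01 (0.12), and FZD1 from 27, 27.5 and 32.7 CPM to 56.8, 50.3 and 54.7 CPM, by 0.91 (0.072). WNT4, a ligand with a known part in the response of breast and uterus to steroid hormones, fell from 5.68, 7.92 and 5.3 CPM to 2.07, 2.14 and 1.29 CPM, by -1.75 (0.21). FZD2, which was tested in 42D but not in LNCaP, fell from 11.5, 10.1 and 11.3 CPM to 5.8, 6.2 and 6.62 CPM, by -0.80 (0.14). WLS, which carries Wnt ligands to the cell surface, fell by -0.30 (0.058). The libraries of the 2 treatments did not overlap for any of these genes in 42D NT3.

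The difference in response between 42D NT3 and LNCaP NT3 was tested as an interaction and was called for 6 of 42 genes, against 3.85% of all genes. WNT5A fell further in 42D, by -1.99 (0.11; adjusted p = 3.67e-15), and WNT4 by -1.14 (0.31; 0.0283). ROR1 rose further by 1.02 (0.16; 6.55e-05), FZD1 by 0.47 (0.099; 0.00205), FZD5 by 0.38 (0.11; 0.0476) and LGR4, a receptor for the Wnt-enhancing R-spondins, by 0.31 (0.089; 0.0356). RNF43, WNT7B, ROR2, FZD8 and WLS, with differences of 0.02 (0.2), -0.01 (0.17), -0.11 (0.37), 0.22 (0.25) and -0.15 (0.087), were not called. The count fell to 3 without LNCaP NT3 with DMSO replicate 2. The calls of WNT5A, ROR1 and FZD1 held whichever library was left out. That of WNT4 ended without LNCaP NT3 with DMSO replicate 2 (0.0634) or 3 (0.0608), with R1881 replicate 2 (0.0949) or 3 (0.0519), without 42D NT3 with DMSO replicate 2 (0.105) or R1881 replicate 3 (0.132). That of LGR4 ended without LNCaP NT3 with DMSO replicate 1 (0.0883) or 2 (0.083) or R1881 replicate 2 (0.105), or 42D NT3 with DMSO replicate 3 (0.0802) or R1881 replicate 2 (0.0969). The FZD5 difference lost its call without LNCaP NT3 with DMSO replicate 2 (0.11) or 3 (0.103), with R1881 replicate 1 (0.104) or 3 (0.108), and without 42D NT3 with DMSO replicate 2 (0.0697) or 3 (0.141) or R1881 replicate 1 (0.0679) or 3 (0.073).

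**Figure D2:**
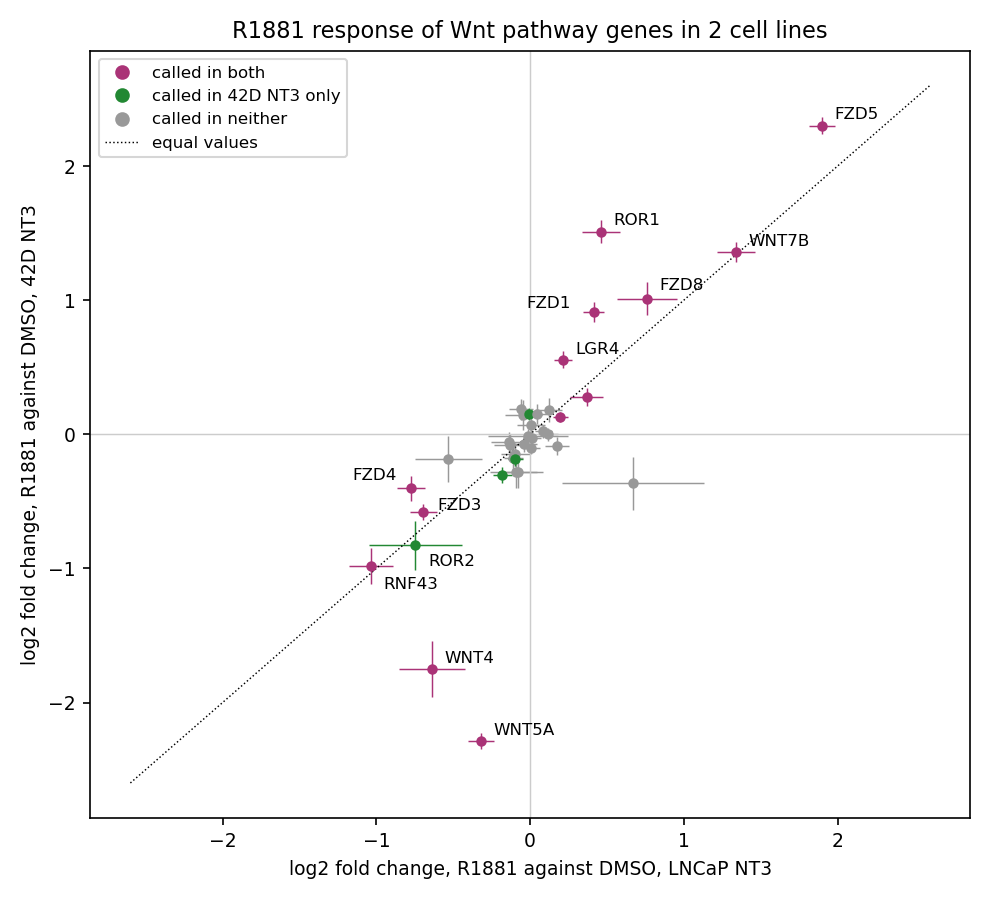
Log2 fold change with R1881 in LNCaP NT3 (horizontal) and 42D NT3 (vertical) for the 37 genes tested in both, with SE as bars, coloured by where the gene was called. Named genes lie at -2.29 to 2.30 in 42D NT3, and WNT5A and WNT4 lie far below the line of equal values, ROR1 and FZD1 above it.

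The guide lines were then set beside NT3 for the size of their answer to R1881. The interaction called 2 of 37 genes in C2, against 0.689% of all genes. FZD5 rose less than in NT3 by a difference of -0.94 (0.12; adjusted p = 0.000131), which held in every fit with a library left out. FZD1 differed by -0.45 (0.096; 0.0169): its C2 libraries stood at 27.5, 26.3 and 25.1 CPM with DMSO and 25.7, 26.2 and 25.5 CPM with R1881. That call ended without NT3 with DMSO replicate 1 (0.0752) or 2 (0.0642) or R1881 replicate 2 (0.0895), and without C2 with DMSO replicate 1 (0.0825) or 2 (0.0713) or R1881 replicate 1 (0.0714) or 3 (0.062), where the count was 1. WNT7B was at -0.71 (0.17; 0.0556). In sgT33-5, F2 and 42D sgT33-5 the interaction called 0 genes of the set, while 4, 3 and 3 had an unadjusted p under 0.05 and DESeq2 called 0, 1 and 0. Of all genes, 0%, 0% and 0.123% were called in these 3. In F2 the difference for FZD5 was -0.62 (0.12; 0.154), and it was called without F2 with R1881 replicate 2 (0.048). All of these comparisons use the same NT3 libraries of their cell line.

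Without regard to hormone, the ligand WNT5A was the only gene of the set called between sgT33-5 and NT3, in either cell line and at either treatment. It was lower in the guide line each time. In LNCaP with DMSO, sgT33-5 stood at 35.1, 34.2 and 37.3 CPM against 54, 49.9 and 47.5 CPM in NT3. With R1881 it stood at 24.1, 23.5 and 28.4 CPM against 41.6, 36.8 and 43.5 CPM. The highest guide library lay below the lowest NT3 library in both. The differences were -0.50 (0.085; adjusted p = 0.00108) and -0.68 (0.089; 2.73e-05), and both held in every alternative tried. In these comparisons 1.4% and 3.04% of all genes were called. In 42D with DMSO, WNT5A stood at 431, 500.5 and 429 CPM in sgT33-5 against 522, 571 and 550.2 CPM, and with R1881 at 84.1, 91.3 and 81.9 CPM against 107, 118 and 107 CPM. Again the libraries did not overlap, and the differences were -0.26 (0.058; 0.0301) and -0.38 (0.064; 0.00608), where 1.13% and 0.513% of all genes were called. The R1881 value held in every alternative. The DMSO value lost its call without 42D NT3 replicate 2 (0.1) or 3 (0.129), or sgT33-5 replicate 1 (0.152) or 3 (0.0908). The effect of sgT33-5 was closer to 0 in 42D by 0.23 (0.11) with DMSO and 0.31 (0.11) with R1881, which were not called (0.383 and 0.214), where 0.797% and 1.32% of all genes were. Of the groups of each cell line, sgT33-5 with R1881 had the lowest level. A lower level in bulk RNA may be fewer cells that express a gene or less RNA per cell, which cannot be told apart here.

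With R1881, replicates of sgT33-5 and NT3 paired by number, and the fit with a replicate block called 5 genes in LNCaP in place of 1. The added ones were WNT7B at -0.38 (adjusted p = 0.000566), VANGL2 at -1.02 (0.0223), FZD5 at -0.23 (0.039) and CTNNB1 at -0.15 (0.0133). In 42D the blocked fit called 2, adding LGR4 at 0.20 (0.00242). Without NT3 with R1881 replicate 3 or sgT33-5 with R1881 replicate 3, the unblocked count in LNCaP was 3 or 2.

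C2 and F2 differed from NT3 in more of the set. In C2, 11 of 37 genes were called with DMSO, 6 higher and 5 lower (18.2% of all genes), and 18 with R1881, 8 higher and 10 lower (23%). In F2, 10 were called with DMSO, 8 higher and 2 lower (16.7% of all genes), and 10 with R1881, 5 in each direction (13.4%). Both lines are compared with the same NT3 libraries, so their values are given side by side and no overlap is read from them. VANGL2 (ENSG00000162738, chromosome 1, 160400564 to 160428670), a membrane protein at the core of planar polarity, had the largest difference. With DMSO it stood at 2.1, 1.72 and 1.75 CPM in NT3, 0.0574, 0.223 and 0.0602 CPM in C2 and 0.302, 0.705 and 0.808 CPM in F2. These are low counts, 87 over the NT3 group, 6 over C2 and 33 over F2, so NT3 was higher than C2 by a ratio of 16.2 (95% counting interval 7.15 to 45.4) and than F2 by 3.04 (2.01 to 4.68). The fitted changes were -3.93 (0.44; adjusted p = 2.64e-07) in C2 and -1.59 (0.31; 0.000736) in F2, and with R1881 -4.27 (0.45) and -1.69 (0.32). In sgT33-5 it stood at 0.804, 1.08 and 0.874 CPM, with 45 counts, and its change of -1.004 (0.29) was not called (0.0967). With R1881 the sgT33-5 value was -1.02 (0.3; 0.0577), and it was called without NT3 with R1881 replicate 3 (0.0427).

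Among receptors, FZD5 with R1881 was lower than in NT3 by -1.02 (0.079) in C2 and -0.73 (0.078) in F2, and WNT7B by -0.46 (0.11) and -0.57 (0.12). With DMSO neither gene was called in either line. FZD3 and FZD4, which R1881 lowers, were higher in C2 with R1881 by 0.36 (0.088) and 0.43 (0.091). ROR2 was higher in both lines, at 2.41, 3.85 and 3.13 CPM in C2 and 3.26, 3.9 and 2.69 CPM in F2 with DMSO against 2.16, 1.58 and 1.49 CPM in NT3, differences of 0.84 (0.25) and 0.90 (0.24). The DMSO call ended in C2 without NT3 replicate 2 (adjusted p = 0.0684) or 3 (0.0776) or C2 replicate 2 (0.122), and in F2 without F2 replicate 2 (0.0646). With R1881 its differences were 1.003 (0.29) in C2 and 1.47 (0.28) in F2. The C2 value lost its call without NT3 with R1881 replicate 1 (adjusted p = 0.0644) or C2 with R1881 replicate 2 (0.0559). WNT5A was lower in C2 by -0.32 (0.084) with DMSO and -0.36 (0.086) with R1881, the DMSO call ending without NT3 replicate 1 (0.0583) or C2 replicate 1 (0.0585). In F2 WNT5A stood at 46, 47 and 49.4 CPM with DMSO, at -0.09 (0.083; 0.539) from NT3, and at -0.16 (0.086; 0.257) with R1881.

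**Figure D3:**
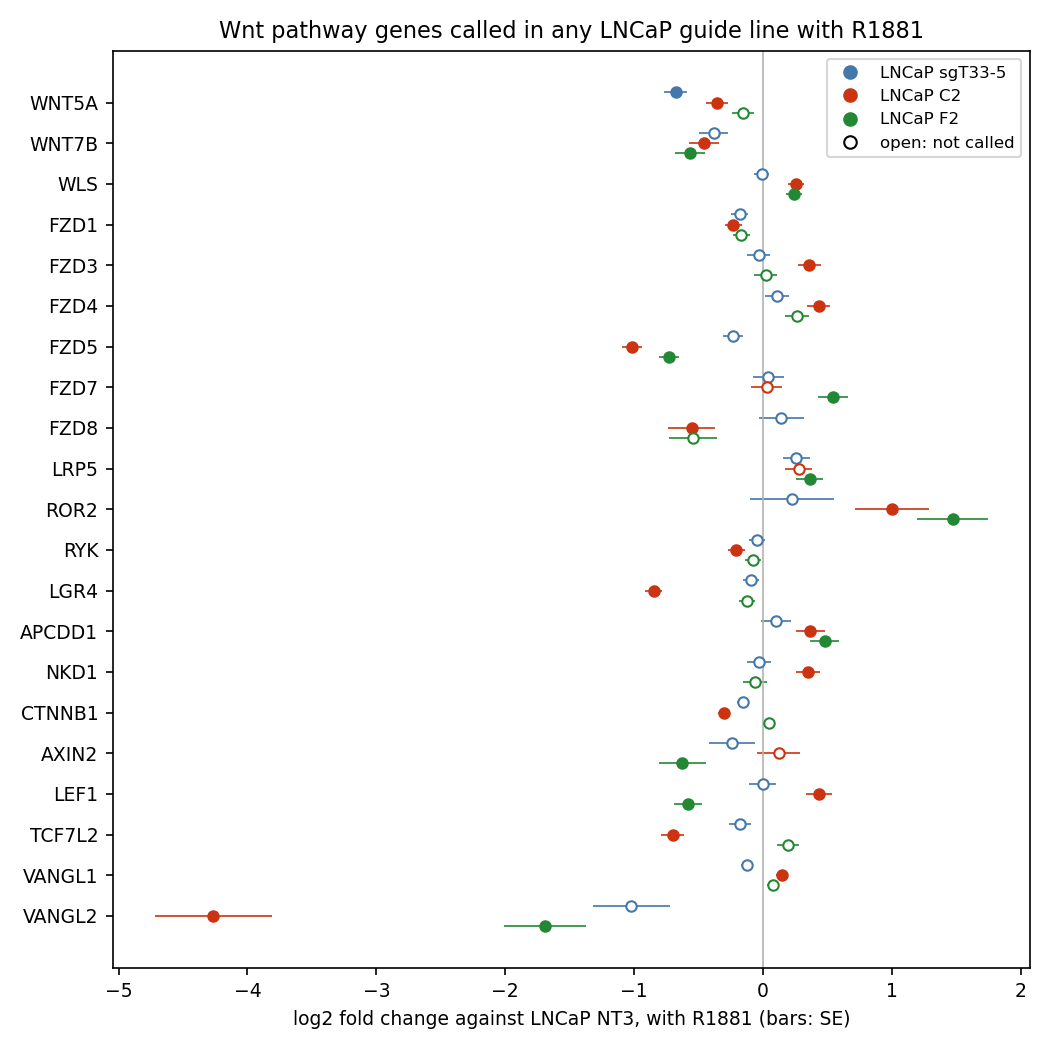
Log2 fold change against LNCaP NT3 with R1881 (horizontal, bars SE) in sgT33-5, C2 and F2, for the 21 genes called in at least 1 of the 3; open circles are not called. WNT5A is filled in sgT33-5 and C2, FZD5 lies at -1.02 in C2 and -0.73 in F2, and VANGL2 reaches -4.27 in C2.

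C2 and F2 carry the same guide name and yet differed from each other, in 12 of 37 genes with DMSO (5 higher in C2, 7 lower; 18.1% of all genes) and 10 with R1881 (4 and 6; 21%). The transcription factors of the pathway moved in opposite directions. LEF1 (ENSG00000138795, chromosome 4, 108047545 to 108168956) stood at 20.3, 19.5 and 18.8 CPM in C2 with DMSO and 8.52, 9.65 and 9.48 CPM in F2, with NT3 at 11.7, 10.3 and 9.65 CPM. TCF7L2 (ENSG00000148737, chromosome 10, 112950247 to 113167678) stood at 13.2, 12 and 13.2 CPM in C2 and 25.5, 24 and 22.8 CPM in F2, with NT3 at 17.9, 17.2 and 21.2 CPM. C2 minus F2 was 1.08 (0.1; adjusted p = 1.47e-08) for LEF1 and -0.91 (0.088; 1.76e-08) for TCF7L2, and with R1881 1.02 (0.1) and -0.90 (0.087). The LGR4 receptor was lower in C2, at 23.8, 23.8 and 24.7 CPM with DMSO against 34.6, 36.2 and 33 CPM in F2, by -0.52 (0.064), and with R1881 by -0.72 (0.063). CTNNB1 was lower in C2 by -0.25 (0.047) and -0.35 (0.047), at 488, 487 and 489.5 CPM with DMSO against 579.9, 599 and 565 CPM. The feedback gene NKD1 was higher in C2 by 0.39 (0.089) and 0.41 (0.09). NKD2 went the other way with DMSO, by -0.71 (0.19; adjusted p = 0.00828), and was not called with R1881, at -0.37 (0.2). RNF43, ZNRF3 and APCDD1 were not called between C2 and F2 at either treatment. AXIN2, the feedback inhibitor used as a readout of beta-catenin, was higher in C2 with R1881, at 6.37, 6.18 and 5.6 CPM against 3.93, 3.01 and 3.96 CPM, by 0.75 (0.18). With DMSO, AXIN2 stood at 6.55, 6.19 and 4.63 CPM in C2 and 5.5, 4.55 and 3.93 CPM in F2, and was not called. VANGL2 was lower in C2 by -2.34 (0.54) and -2.58 (0.58), on the low counts given above. These values compare 1 line with 1 line.

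**Figure D4:**
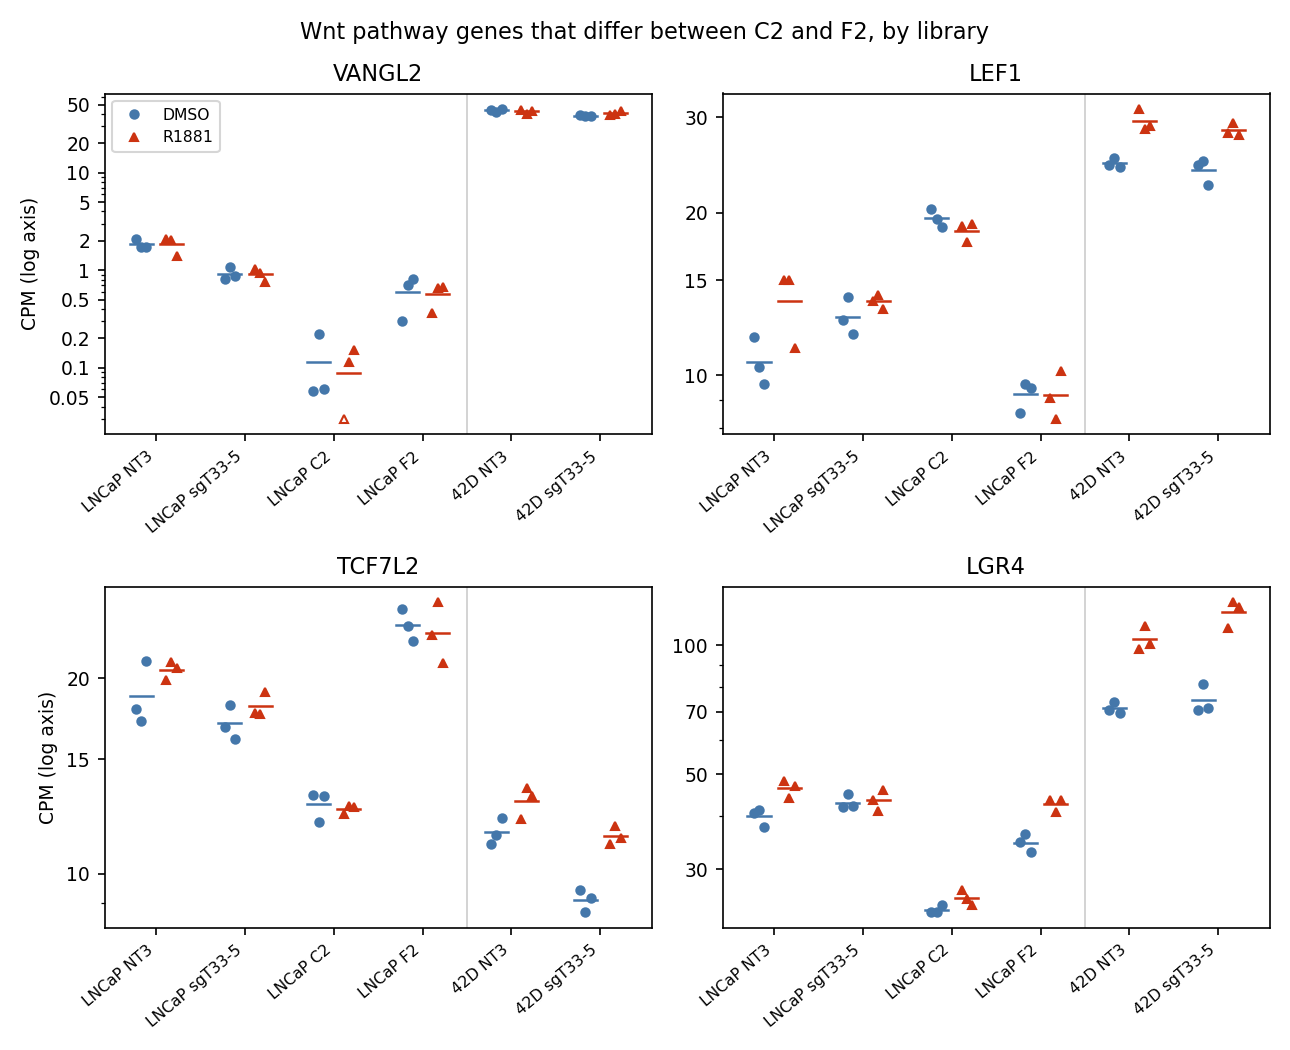
Levels in CPM (log axis) of VANGL2, LEF1, TCF7L2 and LGR4 in every library (circles DMSO, triangles R1881, bars at the mean of 3). C2 lies above F2 for LEF1 and below it for the other 3; the open triangle marks a C2 library with R1881 and 0 CPM of VANGL2, which a log axis cannot place.

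The largest differences of the set lay between the cell lines. With DMSO, 33 of 42 genes were called between 42D NT3 and LNCaP NT3, 27 higher in 42D and 6 lower, where 68.1% of all genes were called, 34.8% higher and 33.3% lower. With R1881 the numbers were 32, 25 and 7, beside 68.9% of all genes, 34.7% higher and 34.2% lower. The median log2 difference was 0.44 for the genes tested and 0.00 for all genes. FZD2, SFRP1, DKK1, NOTUM and TCF7L1 passed the filter only through 42D, so they had to be higher there. Over the 37 genes that passed the filter within both cell lines, 28 were called with DMSO, 22 higher and 6 lower, with a median of 0.35, where 67.6% of all 14417 such genes were called, 34% higher and 33.6% lower. With R1881 27 of the 37 were called, 20 higher and 7 lower, where 68.4% of all such genes were. SFRP1 (chromosome 8, 41261962 to 41309473), a secreted inhibitor that binds Wnt ligands, stood at 53.4, 56.8 and 55.5 CPM in 42D NT3 and at 0.0585, 0.144 and 0.194 CPM in LNCaP NT3, or 2600 counts against 6. FZD2 (chromosome 17, 44557484 to 44561262) stood at 11.5, 10.1 and 11.3 CPM in 42D and had 2 counts over the 3 LNCaP libraries, a ratio of 256 (95% counting interval 70.5 to 2118). DKK1, an inhibitor of LRP5 and LRP6, had 31 counts in 42D and 0 in LNCaP, at least 10.2-fold higher against a floor of 3 counts over the group. All of these genes are thus near or at 0 in LNCaP.

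WNT5A with DMSO differed by 3.44 (0.079; adjusted p = 4.82e-29), and after R1881 by 1.44 (0.079). VANGL2 stood at 43.5, 41.8 and 45 CPM in 42D NT3 against 2.1, 1.72 and 1.75 CPM in LNCaP NT3, a difference of 4.53 (0.13), and its level was not called as changed by R1881 or by sgT33-5 in 42D. FZD8 was higher by 2.28 (0.17), ROR2 by 1.28 (0.22), LEF1 by 1.22 (0.091) and WLS by 1.07 (0.061). Among the transcription factors, TCF7L1 stood at 4.48, 5.14 and 4.49 CPM against 0.234, 0.144 and 0.129 CPM, and TCF7 was higher by 3.21 (0.32) on 19 counts in LNCaP, though it overlaps SKP1 and reads may be shared. TCF7L2 went the other way, at 11.1, 11.5 and 12.2 CPM in 42D against 17.9, 17.2 and 21.2 CPM, by -0.70 (0.087). Lower in 42D were also FZD3, by -1.47 (0.083), FZD5, by -1.23 (0.087), WNT7B, by -0.52 (0.12), FZD4, by -0.34 (0.091), and DVL2, by -0.21 (0.052). CTNNB1 and, of the destruction complex, APC, GSK3A and GSK3B were not called with DMSO. The sum of 8 neuroendocrine markers was 124 to 154 CPM in the 42D libraries and 39.4 to 89.2 CPM in LNCaP. INSM1 and NEUROD1 were at 0 in both, and CHGA and CHGB averaged at most 0.0862 CPM in any group. In NT3 with DMSO, ENO2 stood at 94 against 52.5 CPM and NCAM1 at 28.1 against 0.173 CPM. Most of the sum was ENO2, which within LNCaP averaged from 42 CPM in sgT33-5 to 82.1 CPM in C2, both with R1881. The sum of 9 mesenchymal markers was 157 to 229 CPM in 42D and 185 to 308 CPM in LNCaP, with COL1A2, COL3A1 and DCN under 1 CPM in both. Most of it was FN1, at 161 CPM in 42D and 220 CPM in LNCaP in NT3 with DMSO. Others went opposite ways there: VIM was at 1.85 against 22.4 CPM, ACTA2 at 7.86 against 1.37 and LUM at 5.98 against 1.6. The part of these markers in the differences was not tested.

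**Figure D5:**
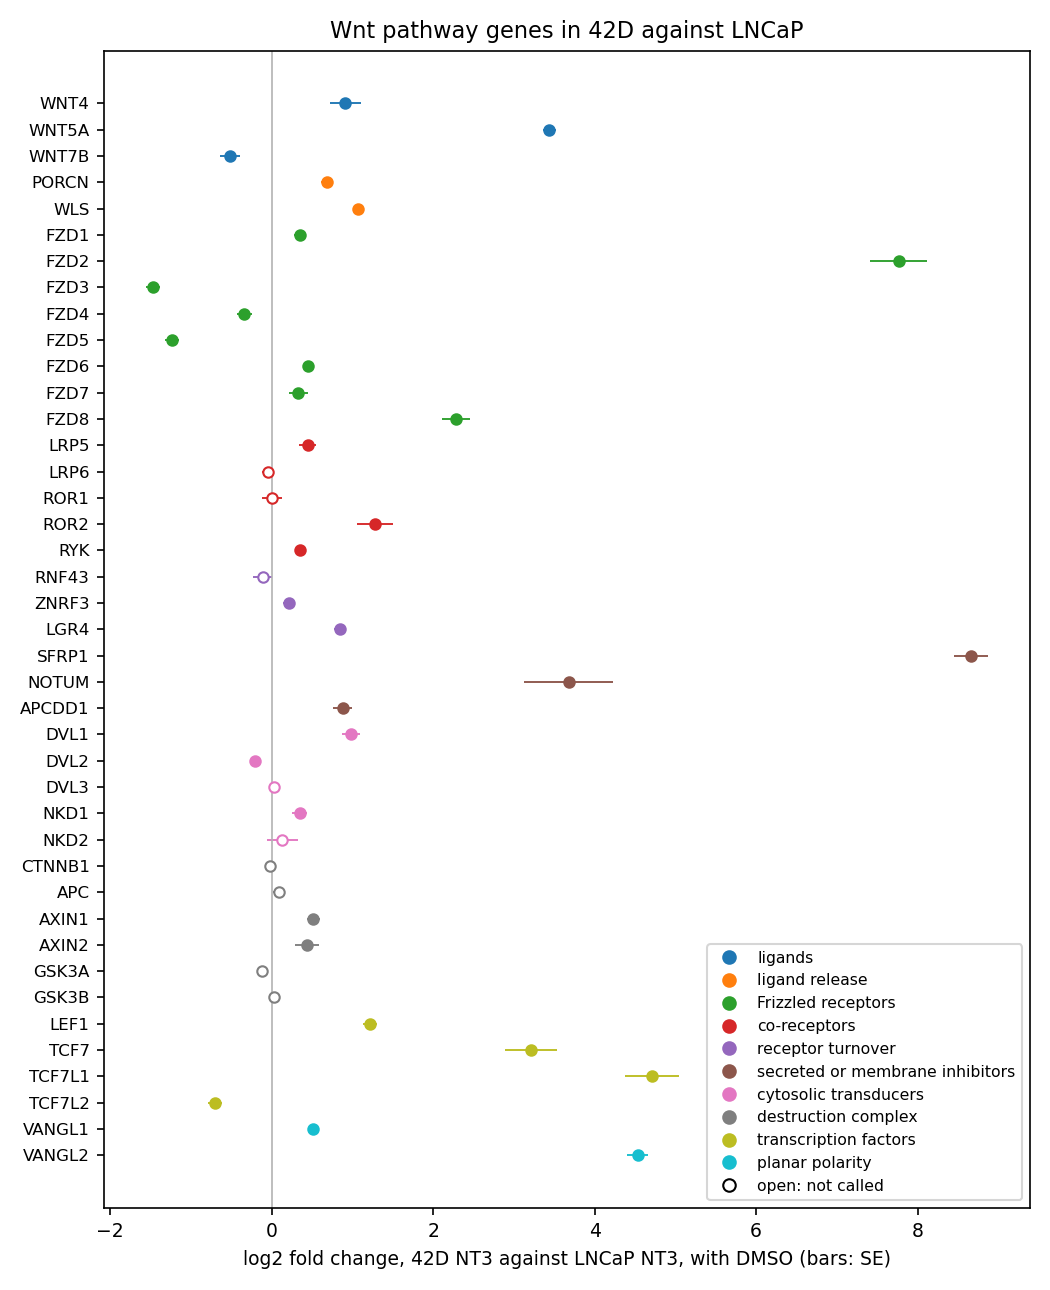
Log2 difference between 42D NT3 and LNCaP NT3 with DMSO (horizontal, bars SE) for 41 of the 42 genes tested, coloured by role; open circles are not called, and DKK1 is left out because LNCaP NT3 had 0 counts. SFRP1, FZD2, TCF7L1 and VANGL2 lie farthest right, but the values of the first 3 rest on at most 8 counts in LNCaP NT3 and depend on the prior count of the fit.

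Compared per kilobase of exon, the order of the receptors and ligands differed between cell lines. Exon lengths were the union of each gene's exons in a GENCODE annotation, and the annotation used for counting is not known. The order of genes within a cell line thus also depends on these lengths, which the SD does not cover. With DMSO in LNCaP NT3, FZD6 was the highest Frizzled at 21.8 ± 1.06 CPM per kilobase (SD, n = 3), followed by FZD3 at 12 ± 0.857, FZD5 at 5.14 ± 0.231, FZD4 at 4.49 ± 0.234, FZD1 at 3.26 ± 0.209, FZD7 at 1.61 ± 0.109 and FZD8 at 0.363 ± 0.0222. In 42D NT3 the order was FZD6 at 29.8 ± 0.75, FZD2 at 5.19 ± 0.341, FZD3 at 4.34 ± 0.312, FZD1 at 4.17 ± 0.456, FZD4 at 3.55 ± 0.179, FZD5 at 2.18 ± 0.108, FZD7 at 2.02 ± 0.0604 and FZD8 at 1.78 ± 0.231. FZD3 and FZD1, and FZD7 and FZD8, lay within their spread there. With R1881, FZD5 reached 19.2 ± 0.955 in LNCaP NT3 and 10.6 ± 0.0337 in 42D NT3, behind FZD6 alone, at 22.1 ± 1.11 and 27.5 ± 0.894. Of the ligands, WNT7B and WNT5A stood at 6.91 ± 0.603 and 6.82 ± 0.448 in LNCaP NT3 with DMSO, within their spread, and WNT4 at 0.732 ± 0.0711. In 42D NT3, WNT5A stood at 74 ± 3.35, WNT7B at 4.83 ± 0.59 and WNT4 at 1.39 ± 0.313. After R1881 the leading ligand by level was WNT7B in LNCaP NT3, at 17.6 ± 2.86 against 5.5 ± 0.465 for WNT5A, and both were close in 42D NT3, at 12.2 ± 0.563 and 15 ± 0.845.

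The 10 genes not tested in LNCaP were WNT11, FZD2, LGR5, DKK1, DKK3, SFRP1, NOTUM, TCF7L1, SP5 and PRICKLE1. LGR5, a stem cell marker and Wnt target, had 0 counts in all 24 LNCaP libraries and 3 over the 12 libraries of 42D. SP5, a transcription factor known as a direct target of beta-catenin, had 7 counts in LNCaP and 13 in 42D, and the ligand WNT11 6 and 14. The inhibitor DKK3 had 23 and 25 counts and the planar polarity gene PRICKLE1 8 and 17. At this depth no change in these 5 genes could be tested in either cell line. Over the 24 LNCaP libraries NOTUM, which inactivates Wnt ligands, had 63 counts, TCF7L1 66, SFRP1 27, FZD2 11 and DKK1 1.

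Beside the 47, 148 further names of pathway genes were listed, 145 of which were found in the table. R1881 changed 23 of the 109 tested in LNCaP NT3, 10 higher and 13 lower, and 33 of 112 in 42D NT3, 11 higher and 22 lower, where 13.2% and 25.3% of all genes were called. Their median log2 fold changes were -0.05 and -0.02, beside -0.01 and -0.00 for all genes. Known Wnt targets moved both ways. In 42D NT3 the Notch ligand JAG1 rose by 1.54 (0.084) and VEGFA, a growth factor for vessels, by 1.13 (0.064), while MYC fell by -0.56 (0.083) and SOX9 by -0.44 (0.14). In LNCaP NT3, VEGFA rose by 0.98 (0.13) and JAG1 by 0.64 (0.14), and EPHB3, an ephrin receptor, fell by -0.41 (0.068). The corepressors TLE3 and TLE1, which bind TCF and LEF factors, fell in 42D NT3 by -1.90 (0.054) and -1.11 (0.054), and TLE3 fell in LNCaP NT3 by -0.52 (0.083). CSNK1A1, a kinase of the destruction complex, rose in 42D NT3 by 0.61 (0.036), and PYGO1, a beta-catenin cofactor, by 0.63 (0.06) there and by 0.48 (0.077) in LNCaP NT3.

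With R1881, the guide lines of LNCaP held 5 called genes of these 109 in sgT33-5 (0 higher, 5 lower), 33 in C2 (8 and 25) and 20 in F2 (7 and 13), and the guide line of 42D 1 of 112, TLE3, lower by -0.27 (0.058). Of all genes, 3.04%, 23%, 13.4% and 0.513% were called in these 4 comparisons. JAG1 was lower than in NT3 by -0.99 (0.15) in sgT33-5 and -1.33 (0.15) in C2. SOX9, a transcription factor of progenitor cells, was lower by -1.62 (0.25), -3.18 (0.3) and -1.73 (0.25) in sgT33-5, C2 and F2, from 2.17 CPM in NT3. In C2 the ligand WNT3 was lower by -2.33 (0.28) and the kinase CAMK2B higher by 0.79 (0.11). In F2 CCND1, the cyclin D1 gene, was higher by 0.55 (0.045) and MMP7, a matrix protease, lower by -1.63 (0.35). Between the cell lines with DMSO, 86 of 116 differed, 49 higher in 42D and 37 lower, where 68.1% of all genes differed, 34.8% higher and 33.3% lower. The R-spondin gene RSPO4, at 17.7 CPM in 42D, was higher by 7.26 (0.28), the corepressor TLE4 by 6.10 (0.36), SOX9 by 4.42 (0.14), DAAM2, a planar polarity gene, by 4.05 (0.18), FZD9 by 3.62 (0.27) and GPC3, a glypican, by 2.83 (0.095). JAG1 was lower in 42D by -3.87 (0.16) and PLCB4, a phospholipase, by -1.66 (0.11). The largest falls were those of MMP7 and CER1, -7.40 (0.85) and -4.73 (1.7), at 0 CPM in 42D NT3. In LNCaP NT3, RSPO4, TLE4 and FZD9 stood at 0.106, 0.0866 and 0.448 CPM. Such sizes rest on few counts in 1 cell line and depend on the prior count of the fit. Of these genes, 116 were tested between the cell lines, but only 109 within LNCaP and 112 within 42D. Some thus passed the filter through 1 cell line only, with their direction thereby fixed, and were kept in these counts. Genes of this list that passed within both cell lines were not counted apart.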

How the data were processed

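RNA was sequenced as polyA-selected, stranded, paired-end libraries of 51 bases, per the labels' protocols. The authors deposited raw counts per gene. The submitters' processing notes name cutadapt, HISAT2 2.1.0 and GRCh38. The counting tool, annotation and strand setting are not given in the sources used here. The members and gene lists were chosen with earlier results of these data known.

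Counts were scaled by TMM in edgeR 4.0.16 (R 4.3.3), genes of low count removed with filterByExpr, and each cell line fitted with robust quasi-likelihood tests on 1 mean per group: 15519 genes in 24 LNCaP libraries and 15403 in 12 of 42D. Comparisons between cell lines used all 36 libraries and 16564 genes. P-values were adjusted by Benjamini-Hochberg over all genes tested. Values of CPM per kilobase carry the SD of 3 libraries, and other CPM values are given by library, as ranges or as group means. Any gene of the set could be named, with values by library for the largest called changes without overlap; from the other pathway lists, the named genes are among the 2 called with the largest change in each direction per list. The procedure was tested on simulated data. Alternatives were DESeq2 1.42.0, RLE scaling, no filter, only the libraries compared, a replicate block and each library left out. Leaving out both libraries of low mitochondrial share, and counting between cell lines only genes that passed the filter in both, were added after seeing the data. Same-numbered replicates deviated together, with every pair's correlation above 0.1, in 7 of 18 comparisons; the labels give only the numbers.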

Additional observations from a re-analysis of the deposited data

Results flagged for a closer look

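Between lines, 9 differences passed the test of the difference itself, at an adjusted p under 0.05 in edgeR. The rise of FZD5 with R1881 was smaller in C2 than in LNCaP NT3, by a log2 difference of -0.94. FZD1, which was not called as changed by R1881 in C2, differed by -0.45. Against LNCaP NT3, 42D NT3 answered with a stronger fall of WNT5A (-1.99) and WNT4 (-1.14). It also answered with a stronger rise of ROR1 (1.02), FZD1 (0.47), FZD5 (0.38) and LGR4 (0.31). The calls of FZD1 in C2, and of WNT4, FZD5 and LGR4 in 42D, depended on single libraries, as given above. With R1881, the effect of sgT33-5 on CTNNB1, the beta-catenin gene, was higher in 42D than in LNCaP by 0.26 (SE 0.061; adjusted p = 0.0181), where 1.32% of all genes were called. CTNNB1 stood at 603, 587 and 612 CPM in LNCaP sgT33-5 and 672, 693 and 644 CPM in LNCaP NT3, and at 662, 661 and 672 CPM in 42D sgT33-5 and 626, 604 and 631 CPM in 42D NT3. The guide libraries were lower than NT3 in LNCaP and higher in 42D. The call ended without both libraries of low mitochondrial share (0.054). It also ended without LNCaP NT3 replicate 1 (0.0636) or 2 (0.0936), LNCaP sgT33-5 replicate 2 (0.0769), 42D NT3 replicate 2 (0.103), or 42D sgT33-5 replicate 1 (0.0574), 2 (0.0634) or 3 (0.0769), all with R1881.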

How the results depend on the processing

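Of 231 calls of the set, 166 held under every alternative tried, 65 were lost under at least 1, and 0 reversed, while 75 were gained. Counts moved over 1.5-fold as follows, and the cause was not tested. For sgT33-5 against NT3 in LNCaP, 1 call became 2 with no filter, 2 with only the libraries compared and 3 with a replicate block under DMSO. Under R1881, 1 became 4 with DESeq2, 5 with no filter, 2 with only the libraries compared, 5 with the block and 1 to 3 with a library left out. The 12 calls of the sgT33-5 response became 7 with no filter, 6 without both libraries of low mitochondrial share and 7 to 11 with a library left out. The block raised C2 against NT3 with DMSO from 11 to 18 and the C2 response difference from 2 to 4 (1 to 3 with a library left out). The F2 response difference went from 0 to 1 with DESeq2, no filter or the block, and 0 to 1 with a library left out. For 42D sgT33-5 against NT3, 1 became 3 with the block under DMSO (0 to 1 with a library left out), and 2 with no filter or the block under R1881. The response difference of the cell lines, 6, gave 3 to 6 with a library left out. The difference in sgT33-5 effect with DMSO, 0, gave 1 with DESeq2, 1 with no filter and 2 with the block. With R1881, 1 became 3, 2 and 4 in that order, 0 with only the libraries compared, 0 without both low-share libraries and 0 to 3 with a library left out (3 without LNCaP NT3 replicate 3). Where replicates paired, the block ended no call described and added those given beside the results. It also added FZD3 and DVL3 to F2 against NT3 with DMSO, ROR1 to the F2 response, WNT5A, FZD3 and DVL3 to C2 against F2 with DMSO, and PORCN, FZD6 and LRP6, and LRP6 and APCDD1, to the responses of 42D NT3 and sgT33-5. Elsewhere the samples share only a number. Using only the libraries compared gave no separate value for the 42D guide response difference, whose libraries are the whole fit. Depth limits VANGL2 in LNCaP and the 5 genes not tested anywhere.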
